A study of Homo sapiens with 6 samples.

Results

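The 9 genes described here encode secreted antagonists of Wnt and bone morphogenetic protein (BMP) signalling: DKK1, DKK3, SFRP1, WIF1, FRZB, GREM1, NOG, FST and FSTL3. They were taken as every probe set that the array annotation assigns to 1 of these symbols alone, which gave 23 probe sets, and they are 9 of 19775 genes with a probe set. Each value below is a log2 expression value made by RMA, a method that turns the probes of a probe set into 1 value per array. The genes were selected on a reading of the expression values of these same 6 arrays, and no record says which comparison was used. Their values and the calls of the genome-wide fit are therefore given as descriptions of these arrays and not as independent evidence.

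The arrays held RNA from KHOS and U-2OS, both established human osteosarcoma cell lines, with 1 array for each of 3 treatments. KHOS and U-2OS cells had received the pEP-miR-1 vector, which carries a microRNA of heart and skeletal muscle, or the pEP-miR-Null vector without it, by transfection with Lipofectamine LTX and Plus Reagent for 48 hours. The control arrays carry no vector in their labels, and whether those cells met the transfection reagent is not stated in the labels. Each array held a pool from 3 flasks, so within a line every treatment has a single value with no replicate. The study's stated comparison was of miR-1 cells with control cells of these lines. No fit below sets miR-1 arrays alone against control arrays. The fits set miR-1 against miR-null, miR-null against control, and both vectors together against control.

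Wnt proteins bind Frizzled receptors together with the co-receptors LRP5 and LRP6 and thereby stabilise beta-catenin, while BMPs bind paired serine-threonine kinase receptors that phosphorylate SMAD proteins. Both pathways drive the osteoblast lineage in bone. The antagonists act outside the cell: DKK1 binds LRP5 and LRP6, SFRP1, FRZB and WIF1 bind Wnt proteins themselves, GREM1 and NOG capture BMPs, and FST and FSTL3 bind activins and related ligands. DKK3 belongs to the Dickkopf family by sequence, but its effect on Wnt signalling is less settled.

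The mature microRNA that the vector carries is shown first, with its seed in capitals (bases 2 to 8 from the 5′ end), since this stretch pairs with targets. The sequence is that of RefSeq, GRCh38.p14, and is the same at both genomic copies.
hsa-miR-1-3p: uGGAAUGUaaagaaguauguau
Promoters are shown for DKK1 and GREM1, which were high in KHOS and in U-2OS below the level filter of 5.11, the median level of all probe sets, and for FST, whose level differed most between vector and control arrays. Each runs from 250 bases before to 50 bases after a transcription start of RefSeq, GRCh38.p14, and 6 of the 9 genes have an entry. The stretches are chr10:52314031-52314330 for DKK1, chr15:32717754-32718053 for the first of the GREM1 starts and chr5:53480379-53480678 for FST, all on the plus strand. Capitals mark matches to the motifs searched.
DKK1: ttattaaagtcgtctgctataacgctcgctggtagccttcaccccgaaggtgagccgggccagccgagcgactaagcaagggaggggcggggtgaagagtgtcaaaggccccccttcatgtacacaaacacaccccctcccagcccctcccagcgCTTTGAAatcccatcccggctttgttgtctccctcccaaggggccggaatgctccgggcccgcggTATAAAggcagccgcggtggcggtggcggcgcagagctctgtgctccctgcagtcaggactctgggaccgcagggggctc
GREM1: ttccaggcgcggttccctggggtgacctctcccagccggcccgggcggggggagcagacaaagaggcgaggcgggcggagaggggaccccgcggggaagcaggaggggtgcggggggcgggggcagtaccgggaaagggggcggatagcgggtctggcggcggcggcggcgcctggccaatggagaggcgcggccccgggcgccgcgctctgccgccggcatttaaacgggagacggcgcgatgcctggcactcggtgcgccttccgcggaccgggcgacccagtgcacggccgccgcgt
FST: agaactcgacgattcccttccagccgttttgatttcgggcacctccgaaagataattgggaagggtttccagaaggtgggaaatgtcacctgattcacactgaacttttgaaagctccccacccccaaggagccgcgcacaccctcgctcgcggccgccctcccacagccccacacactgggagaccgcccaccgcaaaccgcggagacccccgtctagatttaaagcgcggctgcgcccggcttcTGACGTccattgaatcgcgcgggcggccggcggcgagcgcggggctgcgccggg
The motifs were TGACGT for ATF and CREB factors, TGAGTCA for AP-1, CTTTGAA and CTTTGAT for TCF and LEF factors, each on both strands, and TATAAA on the strand of the gene. The motifs share no overlap in these matches. DKK1 held CTTTGAA starting 95 bases before the transcription start and TATAAA starting 30 bases before it, on the strand of the gene. FST held TGACGT starting 4 bases before its transcription start. Of 35116 promoters of this length 4.43% held CTTTGAA, 7.33% TATAAA, 7.98% TGACGT, 4.95% TGAGTCA and 2.62% CTTTGAT. The GREM1 stretch held none of these letters, and 77.0% of its bases were G or C, against a median of 58.7% over all promoters. A match describes the letters in the window and does not show that a factor binds there.

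Across probe sets, r was 0.978 to 0.996 for a pair of arrays from 1 line and 0.910 to 0.937 for a pair from both lines. Of 8 osteoblast lineage genes with a probe set, 4 had a mean at or above 5.11, the median level of all probe sets: RUNX2, COL1A1, SPARC and SPP1. RUNX2 read 8.98 to 9.85 in KHOS, but 4.23, 4.72 and 6.74 on the U-2OS miR-1, miR-null and control arrays. The osteoblast enzyme ALPL (3.76 to 4.49), the collagen chain COL1A2 (4.33 to 4.67) and the osteoblast factor SP7 (4.06 to 4.45) were below 5.11 on every array. Of the markers of other cells, 2 of 7 epithelial (EPCAM and CLDN4), 2 of 6 blood (CD3E and HBB) and 2 of 6 endothelial genes (PECAM1 and TEK) reached that level. The defining genes CDH1 (3.95 to 4.45), PTPRC (3.53 to 3.75) and CDH5 (3.59 to 3.89) did not, while EPCAM, an epithelial surface protein, read 8.43 to 8.70 in KHOS and 5.49 to 5.96 in U-2OS. The mean of the epithelial list was 4.999 to 5.08 in KHOS and 4.79 to 4.91 in U-2OS, and that of the endothelial list 4.61 to 4.77 in KHOS and 5.01 to 5.30 in U-2OS. The part of either in the line differences below was not tested. Array spread differed with line and treatment: the interquartile range of the values was 3.35, 3.32 and 3.24 on the KHOS miR-1, miR-null and control arrays, against 2.75, 2.84 and 3.07 on the matching U-2OS arrays.

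The lines were set against each other first, since most of the antagonists differed more between lines than between treatments. KHOS had high DKK1, GREM1 and SFRP1 and U-2OS had more NOG, DKK3 and FSTL3. FST differed between lines mainly on the vector arrays, and WIF1 and FRZB lay near the bottom of the scale in both. Of the 9 genes 7 passed the level filter and were tested. In limma's fit over 12958 genes 3 of the 7 were called higher in KHOS and 3 lower, where 54.8% of all genes tested were called (30.3% higher and 24.5% lower). For DKK1 and GREM1, which reached the filter through KHOS alone, the call follows from that filter. Each of these 6 genes had no overlap between the KHOS and the U-2OS arrays, which also held for 32.7% of all genes with KHOS above and 32.2% with KHOS below. The median of the 7 differences was 0.65, against -0.00199 over all genes tested.

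DKK1, the LRP5 and LRP6 blocker, read 12.73, 12.44 and 12.26 on the KHOS miR-1, miR-null and control arrays. It read 4.08, 4.03 and 3.95 on the same treatments in U-2OS. The KHOS values stood at percentiles 98.8 to 99.2 of all probe sets of their arrays, whereas the U-2OS values stood at percentiles 21.98 to 22.9. The KHOS and U-2OS arrays did not overlap, and treatment moved the gene by at most 0.47 within a line.

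GREM1, the cystine-knot BMP antagonist, followed the same pattern. The probe set with the highest mean read 12.53, 12.21 and 12.18 in KHOS, against 3.52, 3.80 and 3.54 in U-2OS (miR-1, miR-null and control in each). The other GREM1 probe set read 11.94, 11.82 and 11.72 in KHOS, against 4.10, 3.90 and 3.59 in U-2OS, so both separated the lines to a similar extent. The U-2OS values of GREM1 and DKK1 lie below the level filter of 5.11, where RMA values flatten, so both genes entered the test only through KHOS and no size of their line difference is given.

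SFRP1, a secreted Frizzled-related protein that binds Wnt proteins, was present in both lines but more so in KHOS. Its main probe set read 10.84, 10.97 and 11.67 on the KHOS miR-1, miR-null and control arrays, against 7.58, 7.58 and 8.15 on the matching U-2OS arrays. The difference was 3.39 ± 0.14 (SE, limma adjusted p = 1.46e-05), a 10.5-fold higher mean in KHOS. Of its other 3 probe sets 2 gave the same order of the lines, and the third, with values of 4.18 to 5.03 throughout, was near the floor.

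NOG, a BMP antagonist that blocks both receptor contact sites of its ligand, had the opposite order. It read 7.63, 7.01 and 7.94 on the KHOS miR-1, miR-null and control arrays, against 9.72, 10.21 and 10.91 on the matching U-2OS arrays. All U-2OS values exceeded all KHOS values, with a fitted difference of -2.75 ± 0.23 (SE, limma adjusted p = 2.30e-04), or 6.74-fold less in KHOS.

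DKK3 read 8.72, 8.84 and 8.52 in KHOS against 9.57, 9.74 and 10.41 in U-2OS (miR-1, miR-null and control), a difference of -1.21 ± 0.23 (SE, limma adjusted p = 0.00590). The line difference was widest between the control arrays, -1.90, and was -0.85 and -0.89 between the miR-1 and the miR-null arrays. FSTL3, the follistatin-like activin binder, read 6.81, 6.94 and 6.24 in KHOS, against 7.42, 7.24 and 7.54 in U-2OS. Its difference of -0.73 ± 0.21 (SE, limma adjusted p = 0.0272) was smaller than that of the genes above, and it too was widest between the control arrays (-1.30).

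WIF1, a Wnt-binding inhibitor, read 3.52, 3.79 and 3.84 in KHOS, against 4.23, 3.81 and 3.79 in U-2OS. FRZB, also known as SFRP3, read 3.71, 3.66 and 3.79 in KHOS, against 3.97, 4.02 and 3.66 in U-2OS, and all 4 of its probe sets stayed between 3.40 and 4.08. The values given lie at or below percentile 27.3 of their arrays, and neither gene reached the level filter. The remaining low probe sets of the group were 3 of the 6 for DKK3, with values of 3.20 to 3.88, and the SFRP1 probe set named above.

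**Figure D1:**
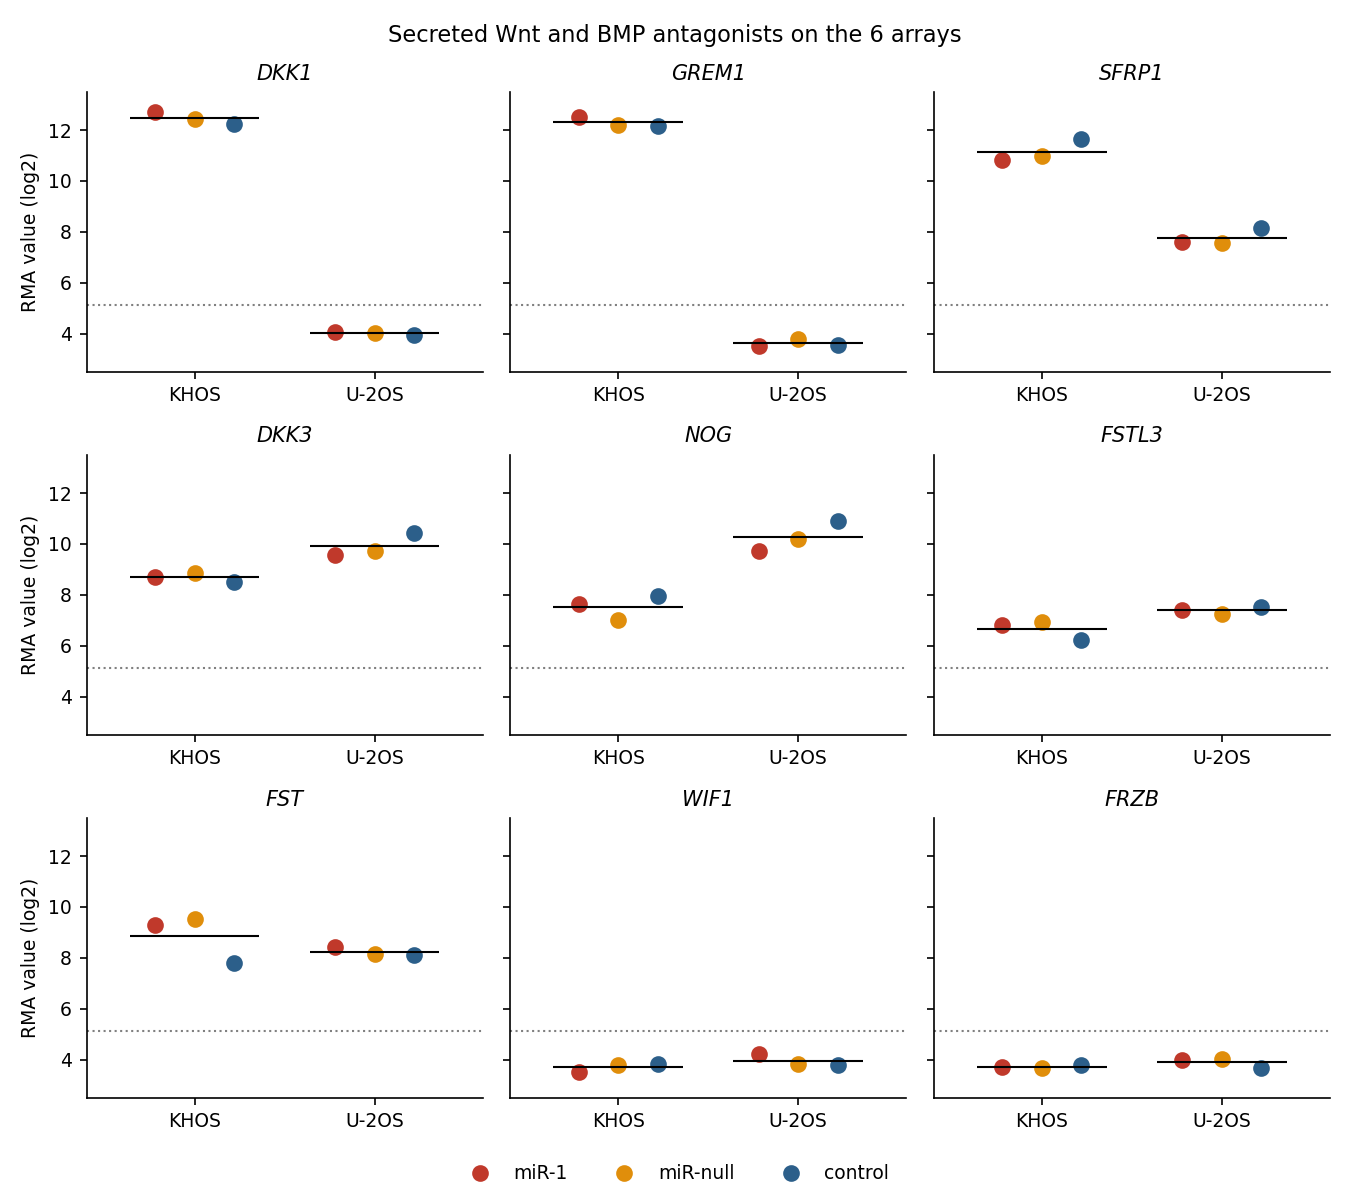
RMA values (log2) of the 9 antagonists on the 6 arrays, by line on the horizontal axis, with 1 point per array coloured by treatment, a black bar at the mean of the 3 arrays of a line, and a dotted line at the level filter of 5.11. DKK1 and GREM1 sit above 12 in KHOS and at or below 4.08 in U-2OS, NOG runs the other way, and WIF1 and FRZB lie below the dotted line on every array.

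Both kinds of vector array were then set against the control arrays. Values of SFRP1 and NOG were lower on every vector array than on the control array of its line, FST was higher on the vector arrays of KHOS, and DKK1 and GREM1 moved little against their line difference. In limma's fit over both lines 0 of the 7 genes passed, where 0.478% of all genes did (0.355% higher and 0.123% lower), and 3 of the 7 had an unadjusted p under 0.05, as did 2587 of the 12958 genes. The median of the 7 fitted changes was 0.16, against -0.03 over all genes. Hybridization spike-ins, RNAs added to every sample, were also higher on vector arrays, by 0.27 in KHOS and 0.68 in U-2OS. Their mean was 9.93, 10.13 and 9.76 on the KHOS miR-1, miR-null and control arrays, against 11.65, 11.33 and 10.81 on the matching U-2OS arrays. Spike-ins were thus lower on every KHOS array than on any U-2OS array. The actin 3′ minus 5′ difference, a sign of RNA quality, was 2.90, 2.89 and 2.68 on the KHOS miR-1, miR-null and control arrays, against 2.49, 2.64 and 2.40 on the matching U-2OS arrays. It was thus higher with a vector in both lines and higher in KHOS. The part of these measures in the vector and line differences was not tested. In bulk RNA, fewer cells that express a gene and less of its RNA per cell cannot be told apart.

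SFRP1 differed from control by -0.83 with miR-1 and -0.70 with miR-null in KHOS, and by -0.57 and -0.58 in U-2OS. All 4 vector arrays were below the control array of their line. The main probe set thus gave a mean change of -0.77 in KHOS, where 95 of the 12958 genes had a more negative one, and of -0.57 in U-2OS, where 2022 had. The next probe sets gave -0.89 and -0.80 in KHOS, against -0.53 and -0.25 in U-2OS. The probe set near the floor gave 0.25 in KHOS, against 0.59 in U-2OS, and with the mean of all 4 probe sets the fitted change was -0.37. Over both lines the fitted change was -0.67 ± 0.13 (SE, limma adjusted p = 0.0627), and after quantile normalization the mean changes were -0.79 in KHOS and -0.32 in U-2OS. Without the U-2OS control array the fit gave -0.77, the change of KHOS alone. The limma adjusted p was 0.0279 under a mean-dependent prior variance, 0.103 after quantile normalization and 0.212 with the mean of the probe sets. It was 0.115 to 0.203 leaving out 1 vector array.

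NOG differed from control by -0.31 with miR-1 and -0.93 with miR-null in KHOS, and by -1.18 and -0.70 in U-2OS. All 4 vector arrays were below the control array of their line, but the miR-1 and miR-null arrays of a line differed from each other by up to 0.62. The fitted change was -0.78 ± 0.22 (SE, limma adjusted p = 0.124). Both vector arrays below control in both lines was the pattern of 2 of the 7 genes, SFRP1 and NOG, and of 25.1% of all genes. The reverse pattern held for DKK1 and for FST, 2 of 7, and for 14.2% of all genes. Its U-2OS part was small: 0.12 and 0.07 above control for DKK1 (miR-1 and miR-null), below the level filter, and 0.30 and 0.03 for FST.

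FST, the activin-binding protein follistatin, read 9.28, 9.54 and 7.82 on the KHOS miR-1, miR-null and control arrays, against 8.41, 8.14 and 8.11 on the matching U-2OS arrays. The KHOS vector arrays were 1.46 and 1.73 above the control array, a mean change of 1.59 or 3.02-fold, and 105 of the 12958 genes had a larger one in that line. In U-2OS the mean change was 0.16, and on this probe set all 3 of its arrays lay between the KHOS control array and the KHOS vector arrays. This placement did not hold on the other FST probe sets, where U-2OS miR-1 read 7.35 and 4.99, below KHOS control at 7.75 and 5.02. Averaged over treatments KHOS was higher by 0.65 ± 0.31 (SE), which did not pass (limma adjusted p = 0.116). That difference was 1.13 (7.86e-05) without either control array and 1.22 (0.0321) with the mean of the probe sets, and both passed. It was 0.33 (0.336) after quantile normalization and 0.28 (0.505) without either miR-null array. The other FST probe sets gave 1.90 and 2.19 in KHOS, against 0.18 and -0.04 in U-2OS, so all 3 were higher on the KHOS vector arrays. After quantile normalization the main probe set gave 1.54 in KHOS, against 0.42 in U-2OS. The joint fit, which counts a line difference as spread, gave 0.88 ± 0.30 (SE, limma adjusted p = 0.175). Without the U-2OS control array it gave 1.59 and without the KHOS control array 0.16, which are the changes of KHOS alone and of U-2OS alone.

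The line difference in the vector change, KHOS minus U-2OS, has the spread of the miR-1 and miR-null arrays within a line as its error, with 1 control array per line. FST had a difference of 1.43 ± 0.28 (SE, limma adjusted p = 0.0433) and was the 1 gene called among the 7, where 2.28% of all genes tested were called. The call was lost after quantile normalization (1.12, adjusted p = 0.155), with every probe set tested (adjusted p = 0.0689), and when either KHOS vector array was left out (0.204 without miR-null and 0.166 without miR-1). DKK3 had a difference of 1.02 ± 0.24 (SE, limma adjusted p = 0.0673), from a change of 0.26 in KHOS and -0.76 in U-2OS. Its adjusted p was 0.0196 under a mean-dependent prior variance and 0.0279 leaving out miR-null of U-2OS. It was 0.166 after quantile normalization (0.77), 0.263 with the mean of its probe sets (0.45), and 0.248 and 0.247 leaving out miR-null and miR-1 of KHOS. The DKK3 probe set next in level had a change of 0.12 in KHOS and of -0.10 in U-2OS and the one after it 0.19 and -0.86, so the probe sets disagree on the size in U-2OS. FSTL3 had 0.64 in KHOS and -0.21 in U-2OS, a difference of 0.84 ± 0.25 (SE, limma adjusted p = 0.104). After quantile normalization its U-2OS change was 0.03, so the opposite sign in U-2OS depended on the scaling. SFRP1, NOG, DKK1 and GREM1, of which the last pair lies below the level filter in U-2OS, had line differences of -0.19, 0.33, 0.22 and 0.07, with standard errors of 0.23 to 0.40 and limma adjusted p of 0.640 to 0.909.

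**Figure D2:**
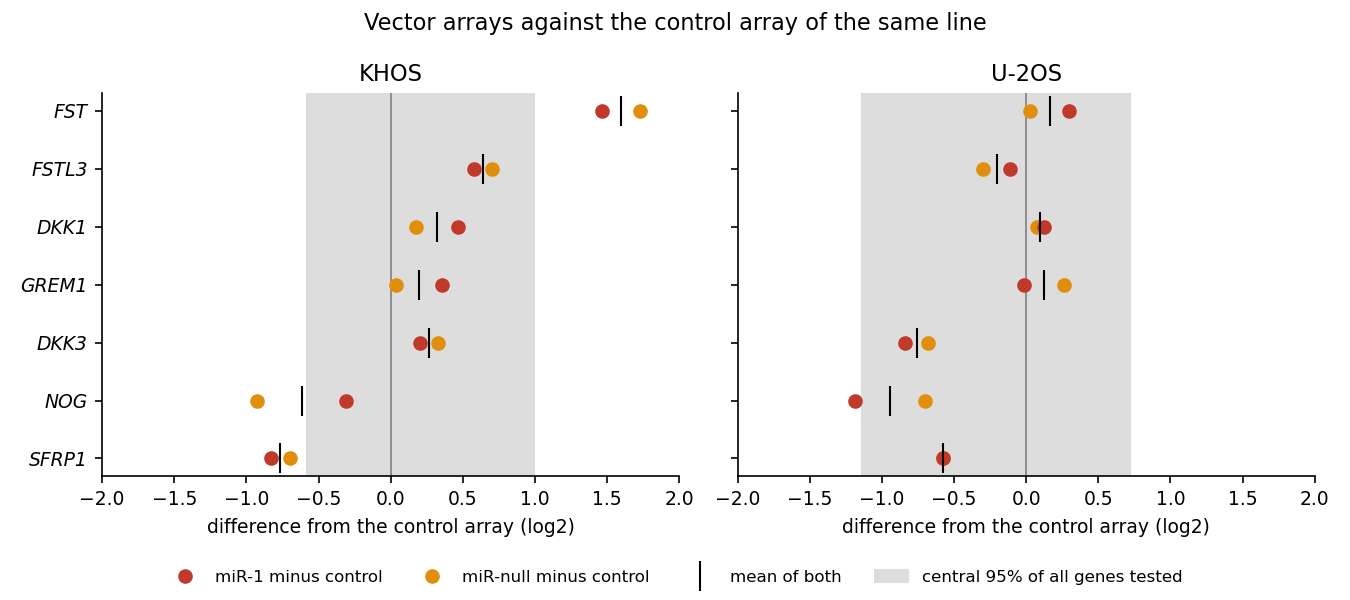
Difference of each vector array from the control array of the same line (log2, horizontal axis) for the 7 antagonists tested, KHOS on the left and U-2OS on the right, with a black tick at the mean of both vector arrays and a grey band for the central 95% of all 12958 genes. FST lies outside the band in KHOS at a mean of 1.59 and inside it in U-2OS at 0.16. SFRP1 and NOG lie left of 0 in both lines, and their means too are outside the band in KHOS and inside it in U-2OS.

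**Figure D3:**
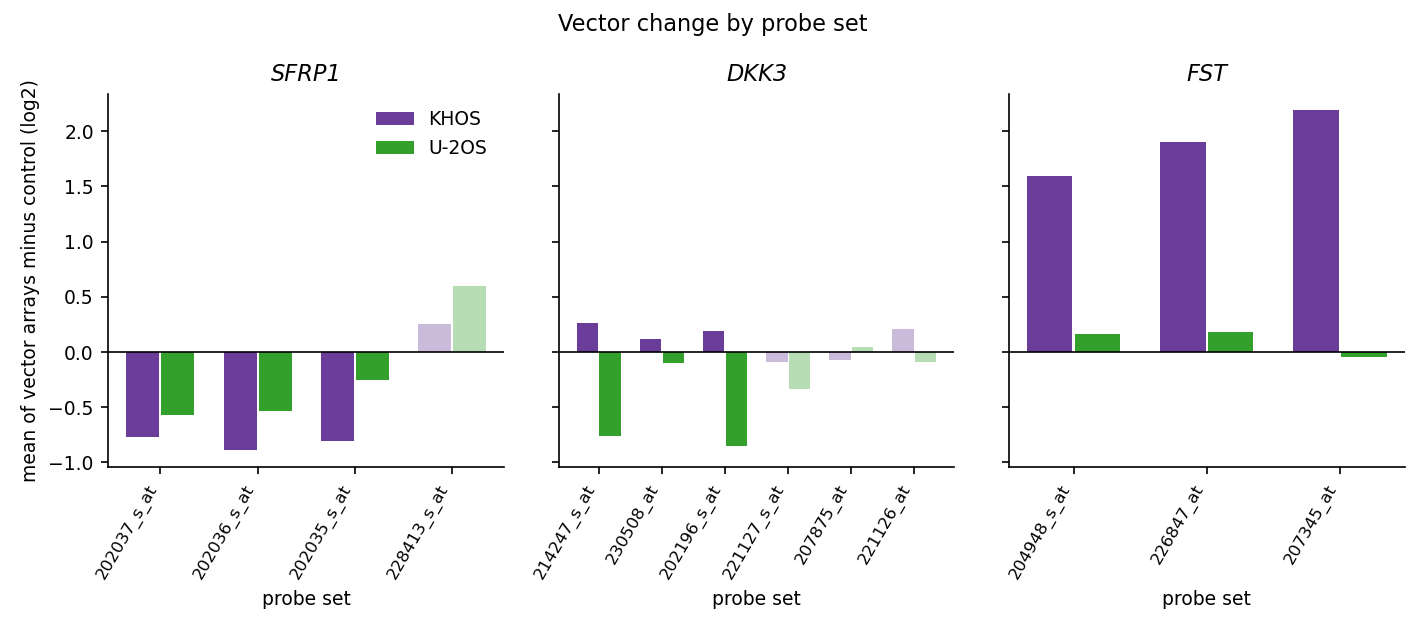
Mean of the vector arrays minus the control array (log2, vertical axis) for each probe set of SFRP1, DKK3 and FST, KHOS left of U-2OS in each pair, with pale bars for probe sets whose mean is below 5.11. All 3 FST probe sets lie between 1.59 and 2.19 in KHOS, and 3 of the 4 SFRP1 probe sets are negative in both lines.

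Arrays with miR-1 were then set against miR-null arrays, which differ by the microRNA carried. None of the 7 antagonists passed in limma, where 0 of all 12958 genes did (0%), and 0 of the 7 had an unadjusted p under 0.05, as did 78 of all genes. DKK1 had a difference of 0.29 in KHOS and 0.05 in U-2OS, with a fitted value of 0.17 ± 0.18 (SE). GREM1 had 0.32 in KHOS and -0.28 in U-2OS, where it lies at the floor. NOG had the widest line contrast, 0.62 in KHOS and -0.48 in U-2OS, which left a fitted difference of 0.07 ± 0.28 (SE). FST had -0.26 and 0.27, FSTL3 -0.13 and 0.18, SFRP1 -0.13 and 0.0017, and DKK3 -0.12 and -0.16. The fitted differences ran from -0.14 to 0.17, with a median of 0.02 against -0.04 over all genes. In the miR-null minus control contrast 0 of the 7 passed in limma, where 0 of all genes did (0%), and 2 of the 7, NOG and SFRP1, and 1263 of all genes had an unadjusted p under 0.05. The fitted changes were -0.82 ± 0.28 for NOG and -0.64 ± 0.17 for SFRP1, and that of FST was 0.88 ± 0.38 (SE, unadjusted p = 0.0585). Leaving out the KHOS control array the change of NOG was -0.98, and leaving out the U-2OS control array that of FST was 1.59. Each of these fits had a single control array.

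The genes most alike over the 6 arrays were found as the smallest root mean square difference after each gene's own mean was subtracted, a description in which the line difference has most weight. Nearest to DKK1 were NT5E, the CD73 ectoenzyme (0.25 log2), SRGN, the proteoglycan serglycin (0.32), and CLDN11, a claudin (0.33). The same 3 were nearest to GREM1, at 0.35, 0.43 and 0.37, and their lowest KHOS value was 11.57 and their highest U-2OS value 4.56. Among the 3 genes nearest to SFRP1 were PDGFRA, a platelet-derived growth factor receptor (0.11), and CPT1A, the carnitine palmitoyltransferase (0.14). PDGFRA read 8.12, 8.27 and 9.26 on the KHOS miR-1, miR-null and control arrays, against 5.06, 5.11 and 5.55 on the matching U-2OS arrays. NOG lay nearest to MTUS1 (0.22), MYEOV (0.24) and CBX2, a Polycomb chromobox protein (0.25). DKK3 lay nearest to ENO3, the muscle enolase (0.10), TENM3, a teneurin (0.11), and DDR2, a collagen receptor kinase (0.11). FST lay nearest to APOL6, an apolipoprotein L (0.11), ZNF550 (0.15) and the histone gene H2BC21 (0.17), and FSTL3 to GABBR1, a GABA type B receptor subunit (0.03), DCAF5 (0.07) and NAIF1 (0.10).

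The other genes of both pathways were grouped by role. Of 121 listed genes 113 had a probe set of their own and 75 were tested. Between KHOS and U-2OS 26 were called higher and 22 lower in limma, where 54.8% of all genes were called. In the vector contrast 1 of the 75 was called higher and 0 lower, where 0.478% of all genes were called. In the line difference of the vector change 2 were called higher and 0 lower, where 2.28% were called.

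Among other secreted Wnt antagonists only NOTUM, a Wnt-inactivating lipase, and DKKL1 reached the level filter out of 10 with a probe set, and 0 passed. Of 5 other BMP and activin antagonists tested, 3 were higher and 2 lower in KHOS. CHRDL1, a chordin-like BMP antagonist, read 8.08, 7.99 and 8.86 in KHOS against 4.97, 5.97 and 5.65 in U-2OS (2.78 ± 0.25, SE, limma adjusted p = 3.05e-04). Its U-2OS miR-1 array, at 4.97, lay below the level filter. TWSG1, a BMP-binding modulator, was higher in KHOS by 1.08 and NBL1, a DAN family antagonist, lower (-0.71). FSTL1, a follistatin-like glycoprotein, was below control on all 4 vector arrays with a fitted change of -0.61 ± 0.13 that did not pass (limma adjusted p = 0.0691). The vector changes of CHRDL1 and TWSG1 were -0.50 and -0.27.

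Of 8 Wnt ligands tested 2 were higher and 2 lower in KHOS. WNT5A and WNT5B, ligands known mainly for beta-catenin-independent signalling, were higher in KHOS by 2.83 ± 0.27 and 2.54 ± 0.18 (SE), and WNT10B, which promotes bone formation in mice, was lower (-1.50). The KHOS miR-1 array of WNT10B, at 5.08, lay just below the level filter. In the vector contrast 0 passed, and WNT5A, WNT7B and WNT5B had fitted changes over both lines of -0.72, 0.25 and -0.15. WNT5A read 9.41, 9.47 and 9.61 in KHOS (miR-1, miR-null and control), against 5.89, 6.59 and 7.52 in U-2OS, so its change was mostly in U-2OS. Of 14 receptors and co-receptors 7 were higher and 3 lower in KHOS. The Frizzled receptors FZD2 and FZD7 were higher by 3.72 ± 0.21 and 3.44 ± 0.16 (SE). LGR4, an R-spondin receptor, was called higher. Its U-2OS miR-1 and miR-null arrays read 3.80 and 3.83, below the level filter, so no size is given. Fitted over both lines, the vector change was -1.04 for LGR4, -0.74 for FZD2 and -0.69 for LRP6, the DKK1-binding co-receptor, none of which passed. LRP6 read 9.01, 8.97 and 9.08 in KHOS (miR-1, miR-null and control), against 7.60, 7.86 and 9.03 in U-2OS. Its change was thus mostly in U-2OS.

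Of 9 Wnt feedback and target genes 2 were higher and 5 lower in KHOS. TNFRSF19, a receptor of the tumour necrosis factor family, read 9.38, 9.24 and 9.29 in KHOS, against 3.65, 3.94 and 4.16 in U-2OS, all below the level filter, so no size is given. LEF1, a nuclear partner of beta-catenin, was lower in KHOS (-1.80). BAMBI, a decoy receptor that dampens TGF-beta and BMP signals, was lower in KHOS (-2.34) and was the 1 pathway gene called in the vector contrast. It read 6.72, 6.25 and 4.80 on the KHOS miR-1, miR-null and control arrays, against 8.75, 8.75 and 7.27 on the matching U-2OS arrays. The KHOS control value of BAMBI lay below the level filter, where RMA values flatten. Its vector change and line difference depend in part on that value. Its fitted change was 1.58 ± 0.17 (SE, limma adjusted p = 0.0170), and it no longer passed when 1 of 3 vector arrays was left out: adjusted p = 0.0754 and 0.0671 leaving out miR-null and miR-1 of KHOS, and 0.119 leaving out miR-null of U-2OS. LEF1 had 0.56 and ZNRF3, a ubiquitin ligase that removes Frizzled receptors, -0.66, and neither passed. The ZNRF3 change was in U-2OS, which read 6.28, 6.73 and 7.84 (miR-1, miR-null and control), against 7.85, 7.65 and 7.73 in KHOS.

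Of 10 BMP and GDF ligands 1 was higher and 4 lower in KHOS. BMP4 was lower, with a difference of -1.996 ± 0.234 (SE). BMP2 was called lower too, but its KHOS miR-1 and control arrays were below the level filter, so no size is given. BMP5 was called lower with KHOS values of 4.85 to 4.94, all below that filter. BMP2 read 4.78, 5.52 and 4.46 in KHOS against 8.36, 8.16 and 6.73 in U-2OS, with a vector change of 1.11 ± 0.26 (SE, limma adjusted p = 0.0869). BMP5 and GDF5 had fitted vector changes over both lines of -0.46 and 0.31. GDF5 was below control on both KHOS vector arrays and above it on both U-2OS vector arrays.

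Of 5 activin and related ligands 2 were higher and 2 lower in KHOS: INHBB, an activin subunit, was higher by 3.11 ± 0.44 (SE), INHBC higher by 0.63 and INHBE lower, with KHOS values of 4.36 to 4.60, all below the level filter. INHBB read 8.73, 8.69 and 9.56 in KHOS (miR-1, miR-null and control), against 6.88, 5.63 and 5.13 in U-2OS. Its gap was widest between the control arrays. INHBA, the subunit of activin A, which FST binds, read 9.26, 8.98 and 7.33 on the KHOS miR-1, miR-null and control arrays, against 8.80, 8.99 and 9.48 on the matching U-2OS arrays. Its vector change was 1.79 in KHOS, against -0.59 in U-2OS, and the difference of 2.37 ± 0.27 was called (SE, limma adjusted p = 0.00871). The call was lost after quantile normalization (adjusted p = 0.0635) and when either KHOS vector array was left out (0.0805 for miR-null and 0.0671 for miR-1). With the mean of its probe sets the difference was 1.24. Another INHBA probe set had changes of 1.85 in KHOS and 0.24 in U-2OS, so the negative U-2OS value was not shared between probe sets. FST and INHBA were both higher on the KHOS vector arrays than on the KHOS control array by all of their probe sets with a mean above 5.11.

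Of 9 BMP and activin receptors 2 were higher and 0 lower in KHOS, namely BMPR2, the type II BMP receptor (2.16 ± 0.37, SE), and RGMB, a BMP co-receptor (1.76 ± 0.21). BMPR2 read 8.72, 8.65 and 8.79 in KHOS, against 5.71, 6.14 and 7.85 in U-2OS. Its line difference in the vector change was 1.82 ± 0.29 (SE, limma adjusted p = 0.0237), and the call was lost after quantile normalization (adjusted p = 0.0981), with the mean of its 6 probe sets (0.75, adjusted p = 0.0909) and when either KHOS vector array was left out (0.157 for miR-null and 0.167 for miR-1). INHBA and BMPR2 were singled out in this contrast after their values were seen. Of 13 SMADs and BMP targets 7 were higher and 4 lower in KHOS. ID4, a helix-loop-helix inhibitor, was lower (-3.33 ± 0.36, SE), with its KHOS control array at 4.72, below the level filter. SMAD9, a BMP SMAD, was called lower with KHOS values of 4.65 to 5.09, all below that filter. SMAD4, the common SMAD, was higher by 1.89 ± 0.31 (SE). It read 9.22, 9.05 and 8.90 in KHOS (miR-1, miR-null and control), against 6.44, 7.21 and 7.84 in U-2OS. The SMAD4 gap was narrowest between the control arrays. With a vector MSX2, a homeobox target of BMPs, had a change of 0.74, ID2 of 0.64 and the inhibitory SMAD6 of -0.52, and 0 of the 13 passed. ID2 read 10.29, 9.52 and 8.73 in KHOS (miR-1, miR-null and control), against 8.15, 7.67 and 7.81 in U-2OS, so its change was mostly in KHOS. SMAD6 was not below control on the U-2OS miR-null array (5.86 against 5.83).

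**Figure D4:**
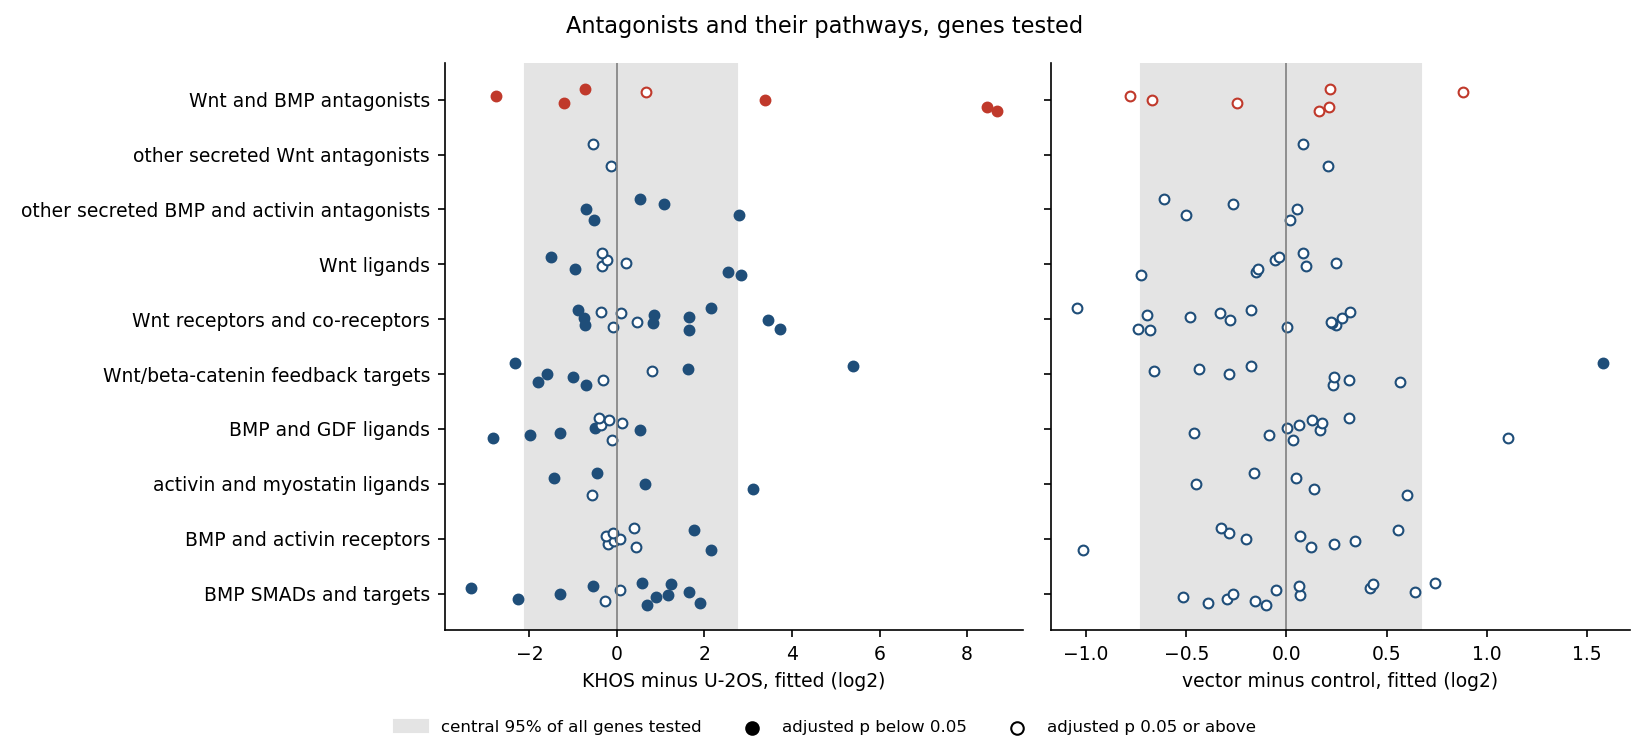
Fitted KHOS minus U-2OS differences (left) and vector minus control changes (right) in log2 for the tested genes of the antagonist group in red and of the pathway lists in blue, with filled points for a limma adjusted p below 0.05 and a grey band for the central 95% of all genes tested. DKK1, GREM1 and TNFRSF19 are drawn at their measured differences although their U-2OS values lie below the level filter. The same holds for BMP5, INHBE and SMAD9 with their KHOS values. In part it holds, among other genes, for BMP2, BAMBI, ID4 and WNT10B in KHOS and for LGR4, CHRDL1 and SMAD6 in U-2OS. BAMBI is the 1 filled point on the right.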

How the data were processed

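The 6 conditions (2 lines by 3 treatments) were measured on 6 Affymetrix U133 Plus 2.0 arrays, 1 each. Per the labels and the series' design text, the authors turned scanner files into log2 values by RMA, using Qlucore. These values ran from 2.83 to 14.90 and were used as deposited. Of 54675 probe sets 62 were controls and were left out. An annotation table gave 1 symbol to 41091 probe sets, more than 1 to 1801, which were not used, and none to 11721. Each of 19775 genes was represented by its probe set with the highest mean, and the 12958 with a mean at or above 5.11, the median of all probe sets, were tested.

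Tests used limma 3.58.1 (lmFit and eBayes) in R 4.3.3 with Benjamini-Hochberg adjustment over all genes tested, and passing means an adjusted p below 0.05. Line and treatment were additive terms (2 residual degrees of freedom), or line and vector (3), or both with their interaction (2). The fits were tested on simulated data. Since each array is a pool, p-values do not measure how cultures vary. RMA flattens differences near the floor, and precision is limited by having 6 arrays. The antagonists and the pathway lists were chosen with earlier results of these data known. The pathway genes named are, per list, up to 3 with the widest vector change and up to 3 with the widest line difference. Alternatives were quantile normalization, no level filter, every probe set, the mean of a gene's probe sets, a prior variance that follows the mean, leaving out each array, and the Mann-Whitney test of the study's methods. RefSeq promoters and microRNAs were read from tables of GRCh38.p14, in which 6 of the 9 genes matched. Of the genes most like SFRP1, 1 is not reported here.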

Additional observations from a re-analysis of the deposited data

Results flagged for a closer look

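FST was the 1 antagonist whose vector change differed between the lines by the interaction term in limma. The difference, KHOS minus U-2OS, was 1.43 on the log2 scale (adjusted p = 0.0433), with a mean change of 1.59 in KHOS and 0.16 in U-2OS. Over 9 alternatives it ran from 1.12 to 1.79, with adjusted p from 0.00749 to 0.204, and passed in 5. Each line had 1 control array, so the spread between control cultures does not enter this value. The gene was picked with these values known.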

How the results depend on the processing

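Line was a term of the fits, so treatments were compared within a line. No further pairing was possible with 1 array per line and treatment. Genes passing in the vector contrast numbered 62 (46 higher, 16 lower), and 98 after quantile normalization (74 and 24), 103 with no level filter (63 and 40), 179 with every probe set (104 and 75), 216 with the mean of a gene's probe sets (98 and 118), 588 with a mean-dependent prior variance (214 and 374) and 0 to 1931 without 1 array. Antagonists passing there numbered 1 with that prior. Without a control array the vector contrast came from the other line alone. For the line difference in the vector change 296 genes passed (259 and 37), and 19 after quantile normalization (13 and 6), 863 with that prior (761 and 102) and 6 to 1531 without 1 array. Antagonists passing there numbered 0 after quantile normalization, 0 with every probe set, 2 with that prior and 0 to 2 without 1 array, and it could not be fitted without a control array. For miR-null minus control 1 gene passed with every probe set, 25 with that prior and 0 to 1346 without 1 array, with 0 to 1 antagonists. For miR-1 minus miR-null 0 passed without any 1 array. Between lines 17205 probe sets passed when every one was tested, and 4471 to 8765 genes and 6 to 7 antagonists without 1 array. The Mann-Whitney test of the study's methods called 0 genes in the vector and line contrasts, where its smallest exact p is 0.133 and 0.1. The causes of these shifts were not tested, beyond fewer arrays or more features in a fit.

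Where a sign turned, neither the value of the main fit nor the turned value passed, which does not cover the other ends of the ranges below. With the mean of a gene's probe sets FST read -0.15 for miR-1 minus miR-null and GREM1 -0.090 for the line difference. Without 1 array, miR-1 minus miR-null ran from -0.22 to 0.26 for GREM1, -0.41 to 0.13 for DKK3, -0.17 to 0.033 for SFRP1, -0.43 to 0.56 for NOG, -0.55 to 0.56 for FST and -0.30 to 0.36 for FSTL3. MiR-null minus control ran from -0.056 to 0.36 for GREM1, -0.69 to 0.34 for DKK3 and -0.22 to 0.63 for FSTL3. The vector change ran from -0.76 to 0.26 for DKK3 and -0.21 to 0.64 for FSTL3, and the line difference from -0.090 to 0.23 for GREM1. The DKK3 end of -0.76 came without the KHOS control array, so from U-2OS alone. It kept the sign of the main fit and is not among the turned values. With 1 array per line and treatment, signal near the floor and the number of arrays limit what can be seen.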
